A study of Mus musculus with 6 samples.

Results

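Igf1, the gene for insulin-like growth factor 1, carried 13 of the 6270 Argonaute (Ago) footprints measured in bone-marrow-derived macrophages, and all 13 lay in its 3′ UTR. A footprint is a stretch of mRNA that was cross-linked to Ago and recovered with it. Members were taken as every footprint that overlaps Igf1 on its own strand, and they are numbered 1 to 13 from 5′ to 3′. Igf1 was chosen by the occupancy of its footprints and by the number of libraries that held them, both already known, so its levels are given here as a description.

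The macrophages came from APOBEC1-deficient mice (KO) and from their wild-type (WT) littermates, all on the C57BL/6 strain and 6 to 12 weeks old. APOBEC1 is a cytidine deaminase that changes C to U in mRNA. Marrow cells of both genotypes were grown in M-CSF, which drives macrophage differentiation, and matured for 7 days before Ago was precipitated with the antibody 2A8. There were 3 libraries of each genotype, from 3 littermate pairs, and the authors combined them into 1 occupancy value per footprint and genotype, the Ago signal relative to the expression of the transcript. Apobec1 itself had 3 footprints in libraries of both genotypes, with a sum of 0.312 in KO against 0.372 in WT (log2 ratio -0.25), each held by 2 or 3 KO libraries. The sources used here do not give the part of Apobec1 that was removed, so these footprints do not check the genotype labels.

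No value below has a replicate check, an SD between libraries or a p-value, because each genotype has 1 combined value, and the depth of the libraries is unknown. A footprint entered the table when at least 2 libraries of 1 genotype held it. Of 9 macrophage marker genes 6 carried a footprint under the symbols searched, among them Csf1r, the M-CSF receptor. The marker Spi1, annotated here as Sfpi1, was missed by that search and carried a footprint as well (log2 ratio 0.55). None of the 8 fibroblast or stromal markers did, nor any of the 3 hepatocyte, 4 neutrophil and 4 T and B cell markers. A marker without a footprint says nothing of its expression. The values used here hold no separate Igf1 RNA level. In cultures measured in bulk, the share of cells that express Igf1 and the Igf1 RNA per cell cannot be told apart.

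IGF-1 is a secreted growth factor that acts on the receptor tyrosine kinase IGF1R, which signals through the insulin receptor substrates to the PI3K-AKT and RAS-ERK pathways. The liver makes most of the IGF-1 in blood, while macrophages are a local source in tissues such as injured muscle. The Igf1 mRNA ends at alternative polyadenylation sites, and its long 3′ UTR leaves room for regulation by miRNAs. Ago proteins carry a miRNA whose seed, bases 2 to 8, pairs with a site in the target mRNA.

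Within the footprints of Igf1, 7-nt matches to the seeds of the searched miRNAs were found in footprint 6, the strongest in KO, and in footprint 1. The sites are shown because they are the only matches inside a footprint among the 35 families that were searched. Mature miRNAs are from RefSeq (GRCm38.p6), with the seed in capitals. Target sites are on the plus strand of mm9, with the bases that match the seed in capitals.
miR-155-5p: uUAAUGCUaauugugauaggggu
Igf1 site in footprint 6 (chr10:87397188-87397212): atggcttactgagatAGCATTAgat
miR-15a-5p: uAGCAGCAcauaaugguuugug
miR-16-5p: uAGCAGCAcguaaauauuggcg
Igf1 site in footprint 1 (chr10:87393513-87393537): caccgcaggatccttTGCTGCTtga
miR-365-3p: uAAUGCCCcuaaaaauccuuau
Igf1 site in footprint 1 (chr10:87393588-87393612): taacattacaaagatGGGCATTtcc
miR-206-3p: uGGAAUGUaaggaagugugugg
Igf1 site in footprint 1 (chr10:87393619-87393643): gaaatatacaagtaaACATTCCaac

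A further set shows some of the 8-nt matches, in which an A follows the seed match, that lie outside the footprints, for families abundant in macrophages. Those of miR-19 at nt 3309 and of miR-23 at nt 3455 are of this kind too and are not shown. miR-29 and let-7 are families often discussed as regulators of Igf1, and the miR-142-5p site ended 9 nt before footprint 9, the second strongest in KO.
let-7a-5p: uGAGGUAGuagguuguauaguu
Igf1 site (chr10:87394824-87394848): caatatgtcatctacCTACCTCaaa
miR-29a-3p: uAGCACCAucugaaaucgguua
Igf1 first site (chr10:87394401-87394425): tgttttttagtacaaTGGTGCTatt
Igf1 second site (chr10:87397035-87397059): ccagctacgccaatgTGGTGCTatt
miR-142a-5p: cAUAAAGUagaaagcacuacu
Igf1 site (chr10:87397940-87397964): tttttttttttttttACTTTATaca

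The Ago footprints of Igf1 were spread over nearly the whole of the long 3′ UTR. The longest annotated 3′ UTR of Igf1 runs from 87393443 to 87399792 on chromosome 10 (mm9, GENCODE vM1), a length of 6350 nt. The 13 footprints covered 954 nt of it, 15.0%. Footprint 1 began 62 nt from the start of the 3′ UTR and footprint 13 ended at nt 5874. A shorter 3′ UTR of the same last exon, called the short form below, ends at 87394546. It holds footprints 1 and 2 alone, so that the other 11 lay on sequence present in the long form only. Annotated 3′ UTRs that are shorter still end at nt 180 to 202, within footprint 1, and lack footprint 2. Footprints 1 and 2 gave 6.21% of the summed occupancy of Igf1 in KO against 5.60% in WT.

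Spacing along the 3′ UTR was uneven. Gaps between neighbours ran from 45 nt, between footprints 10 and 11, to 1788 nt, between footprints 5 and 6, with a median of 306 nt. Footprints were 63 to 148 nt long with a median of 66 nt, and footprint 1 was the longest.

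**Figure D1:**
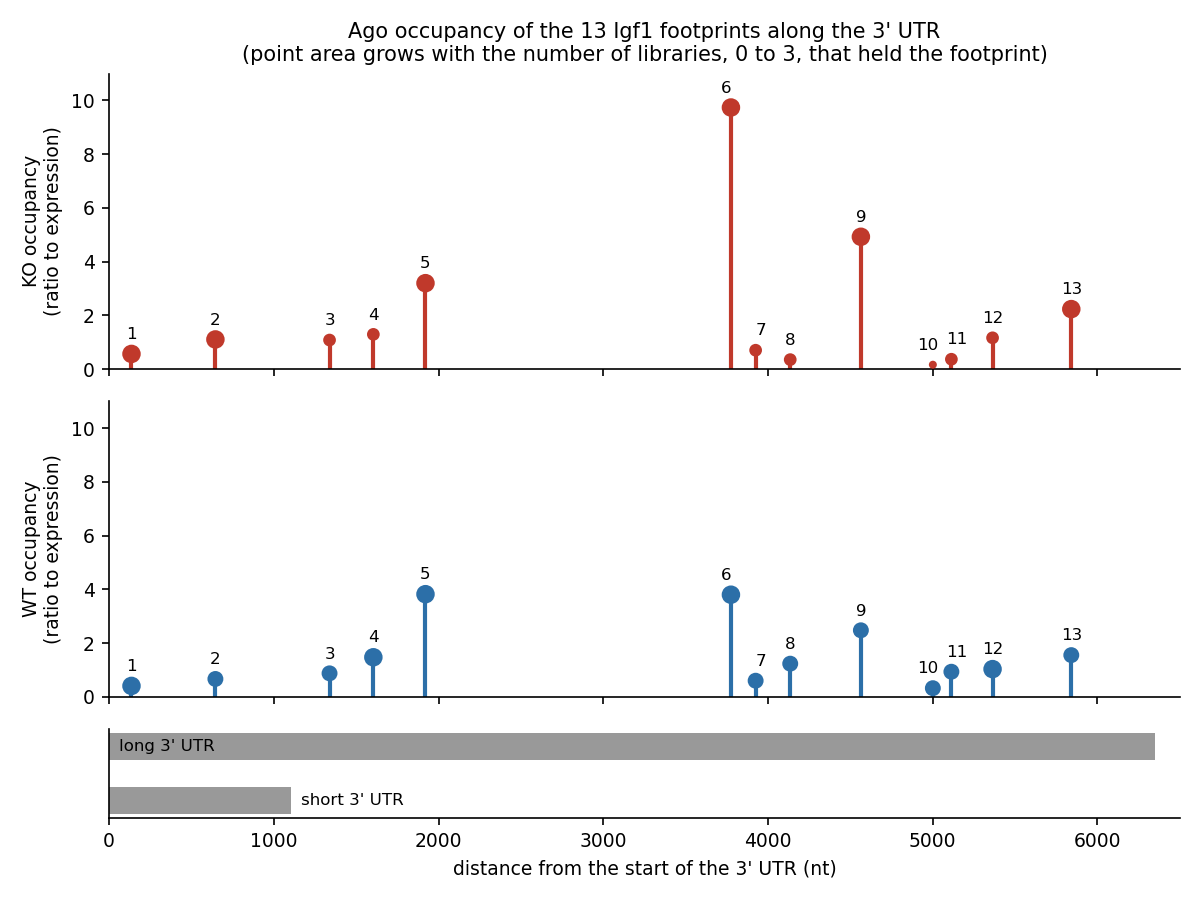
Ago occupancy (y axes, ratio to expression, KO above WT) of the 13 Igf1 footprints against the distance of their centres from the start of the 3′ UTR in nt, with the long and the short 3′ UTR drawn as grey bars. Points grow with the number of libraries that held the footprint. Footprints 5, 6 and 9 were the 3 highest in both genotypes, and footprint 6 stood at 9.74 in KO against 3.80 in WT.

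The highest Ago occupancy of Igf1 in KO macrophages was that of footprint 6, in the distal part of the 3′ UTR (87397185 to 87397249). Its occupancy was 9.74 in KO against 3.80 in WT (log2 ratio 1.36), and it was held by 3 KO and 3 WT libraries. In KO 18 of all footprints had a higher occupancy than footprint 6, and in WT 104 did.

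Footprint 9 (87397971 to 87398041) followed in KO, with 4.92 in KO against 2.48 in WT (log2 ratio 0.99). It was held by 3 KO and 2 WT libraries. Footprint 5 (87395329 to 87395396), at the near side of the large gap, had 3.20 in KO against 3.82 in WT (log2 ratio -0.26), and was held by all 6 libraries. In WT footprints 5 and 6 were nearly equal, while in KO footprint 6 was far above footprint 5. Whether such differences in order exceed the spread between libraries cannot be told from 1 value per genotype.

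Footprint 13 (87399251 to 87399316), the last before the end of the 3′ UTR, came next in order in both genotypes. Its occupancy was 2.23 in KO against 1.56 in WT, with 3 KO and 2 WT libraries. Together, footprints 5, 6 and 9 gave 66.4% of the summed occupancy of the gene in KO against 52.6% in WT.

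At the start of the 3′ UTR, which both the short and the long form hold, occupancy was lower than at these 4 and higher in KO than in WT. Footprint 1 (87393504 to 87393651) had 0.565 in KO against 0.409 in WT and was held by all 6 libraries. Footprint 2 (87394056 to 87394118) had 1.10 in KO against 0.668 in WT, with 3 KO and 2 WT libraries. Their log2 ratios were 0.46 and 0.72.

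Between the end of the short form and the large gap, footprints 3 and 4 differed little between the genotypes. Footprint 3 (87394743 to 87394817) had 1.08 in KO against 0.877 in WT (log2 ratio 0.30), with 1 KO and 2 WT libraries. Footprint 4 (87395015 to 87395077) had 1.29 in KO against 1.48 in WT (log2 ratio -0.19), with 1 KO and 3 WT libraries.

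The lowest KO to WT ratios were found downstream of footprint 6. Footprint 8 (87397545 to 87397609) had 0.353 in KO against 1.24 in WT (log2 ratio -1.81). Footprint 11 (87398523 to 87398588) had 0.367 in KO against 0.937 in WT (log2 ratio -1.35). Both were held by 1 KO and 2 WT libraries. Footprint 10 (87398409 to 87398477), the lowest in both genotypes, had 0.164 in KO against 0.325 in WT (log2 ratio -0.98), and no KO library held it.

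The KO value of footprint 10 was shared exactly by 6 footprints of the table, and that of footprint 11 by 3. The sources used here do not say how a value above 0 arises where no library of a genotype held the footprint. It is the case in KO for 1462 of all footprints.

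The remaining members lay close to these but were nearly equal between the genotypes. Footprint 7 (87397336 to 87397398), 86 nt after footprint 6, had 0.703 in KO against 0.603 in WT, with 1 KO and 2 WT libraries. Footprint 12 (87398770 to 87398841) had 1.16 in KO against 1.03 in WT, with 1 KO and 3 WT libraries. Neighbours on the same mRNA stood apart in their ratio, with footprint 6 at 1.36, footprint 7 at 0.22 and footprint 8 at -1.81 on the log2 scale. Footprint 8 entered the table through WT alone. Such a spread was not particular to Igf1, with an SD of 0.92 against a median of 1.22 over 98 genes with at least 10 footprints.

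Over the gene, 8 of 13 footprints were higher in KO and 5 lower, set against 48.7% of all footprints higher in KO. A difference of at least 2-fold stood in for a call. By it 1 footprint of Igf1 was higher in KO (footprint 6), against 18.9% of all footprints, and 2 were lower (footprints 8 and 11), against 24.2%. Footprint 6 is among the values that the choice of the gene used, so nothing is read from its count. Footprints 8 and 11, held by 1 KO and 2 WT libraries, entered the table through WT alone, where they are higher. Nothing is read from their count either. The share of all footprints has the same limit, as 94.9% were held by at least 2 WT libraries and 40.1% by at least 2 KO libraries. Footprints 9 and 10 lay just inside the 2-fold limit. With a pseudocount of 1 in place of the small one used, footprints 8 and 11 stood at -0.73 and -0.50, under the limit.

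Summed over its footprints, Igf1 had 26.9 in KO against 19.2 in WT (log2 ratio 0.48). By median over its 13 footprints the log2 ratio was 0.22, where that of all footprints was -0.04. Footprint 6 gave most of the difference in the sum. Without it, the sum was 17.2 in KO against 15.4 in WT (log2 ratio 0.15). Its share of the summed occupancy was 36.2% in KO against 19.8% in WT.

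Footprints 1 and 2, which the short and the long form hold, had a summed log2 ratio of 0.63, and the 11 footprints of the long form alone had 0.47. Both parts of the 3′ UTR were higher in KO by their sums. Each occupancy is relative to the expression of the transcript, so the parts are not independent of each other. The sum of the 11 includes footprint 6, without which the whole gene stood at 0.15, and 6 of the 11 were higher in KO.

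Footprints held by 3 KO libraries had a higher ratio in sum than the others. All 13 were held by at least 2 WT libraries (94.9% of all footprints), and 5 of them by 3 (15.4% of all footprints). In KO 6 were held by 3 libraries (12.9% of all footprints), none by 2, 6 by 1 and 1 by none, so that 6 of 13 were held by at least 2 KO libraries (40.1% of all footprints). The 6 were footprints 1, 2, 5, 6, 9 and 13, of which 5 were higher in KO, 1 at least 2-fold, and none was lower by that much. Among all footprints held by at least 2 libraries of both genotypes, 68.5% were higher in KO, 26.2% at least 2-fold, and 5.01% were at least 2-fold lower. The count of Igf1 is near these shares.

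The summed occupancy of these 6 was 21.8 in KO against 12.7 in WT (log2 ratio 0.77). The other 7 had 5.13 in KO against 6.49 in WT (log2 ratio -0.34), and 3 of them were higher in KO. The number of libraries and the occupancy come from the same reads, so this split is not independent of the ratio. All 6 libraries held footprints 1, 5 and 6, and 5.89% of all footprints were held that widely. Of these 3, footprints 1 and 6 were higher in KO (56.9% of the footprints so held), footprint 6 at least 2-fold (6.78%), and none was lower by that much (4.34%).

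**Figure D2:**
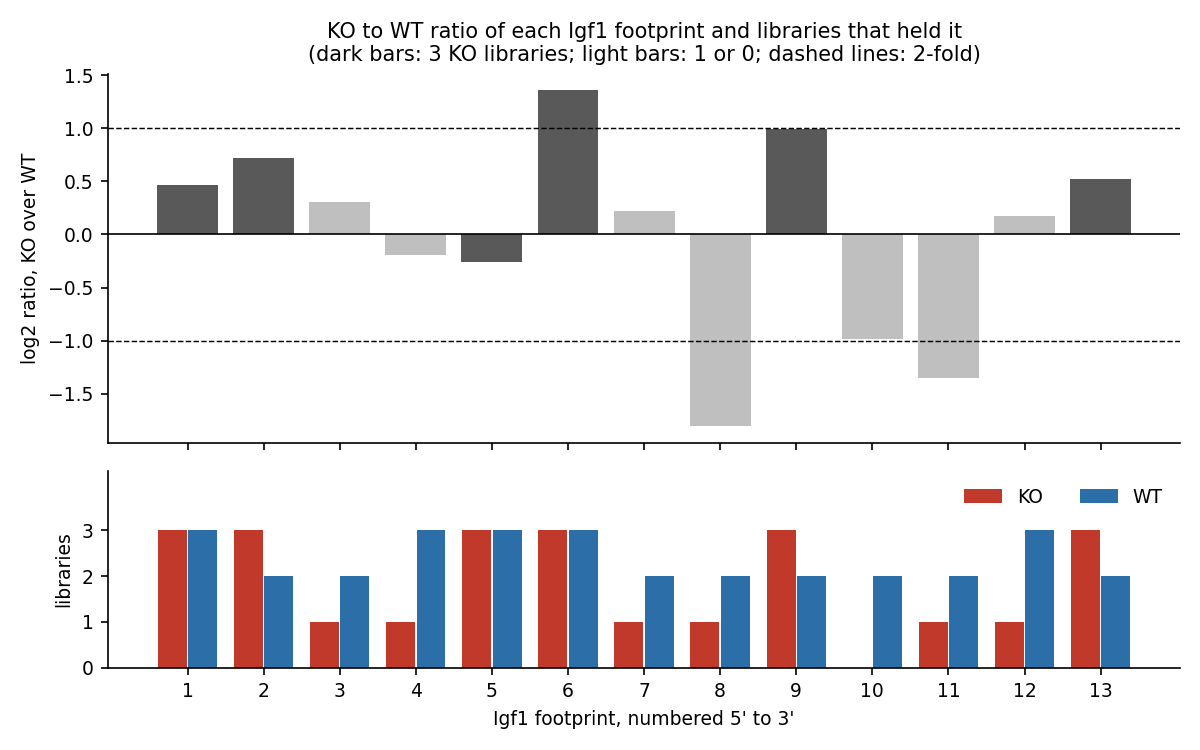
Log2 ratio of KO over WT occupancy for each Igf1 footprint (upper y axis) and the number of KO and WT libraries that held it (lower y axis), in order along the 3′ UTR (x axis). Dark bars mark the 6 footprints held by 3 KO libraries, of which footprint 5 alone was lower in KO, and dashed lines mark a 2-fold difference.

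Base composition moved with the KO to WT ratio across all footprints, with a Spearman correlation of 0.32 between G+C content and log2 ratio, and its part in the values of Igf1 was not tested. G+C content of the Igf1 footprints ran from 26.4% to 49.3% with a median of 39.7%, against a median of 42.9% for all footprints. Across the 13 footprints the Spearman correlation was 0.29. They share 1 transcript and the same libraries, and it is given as a description.

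Footprint 6 had 46.2% G+C and footprint 8 had 41.5%. Of the A+U-rich footprints, 10 and 11 (31.9% and 31.8%) were lower in KO, and 7, 9 and 12 (33.3%, 32.4% and 26.4%) were higher. Footprint 9 alone of these was held by more than 1 KO library. When the median log2 ratio of all footprints of similar G+C content (10 bins) was subtracted, footprint 6 went to 1.12, footprint 9 to 1.52, footprint 8 to -1.66 and footprint 11 to -0.82. On that scale 2 Igf1 footprints were at least 2-fold higher in KO (19.1% of all footprints) and 1 was lower (22.3%).

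**Figure D3:**
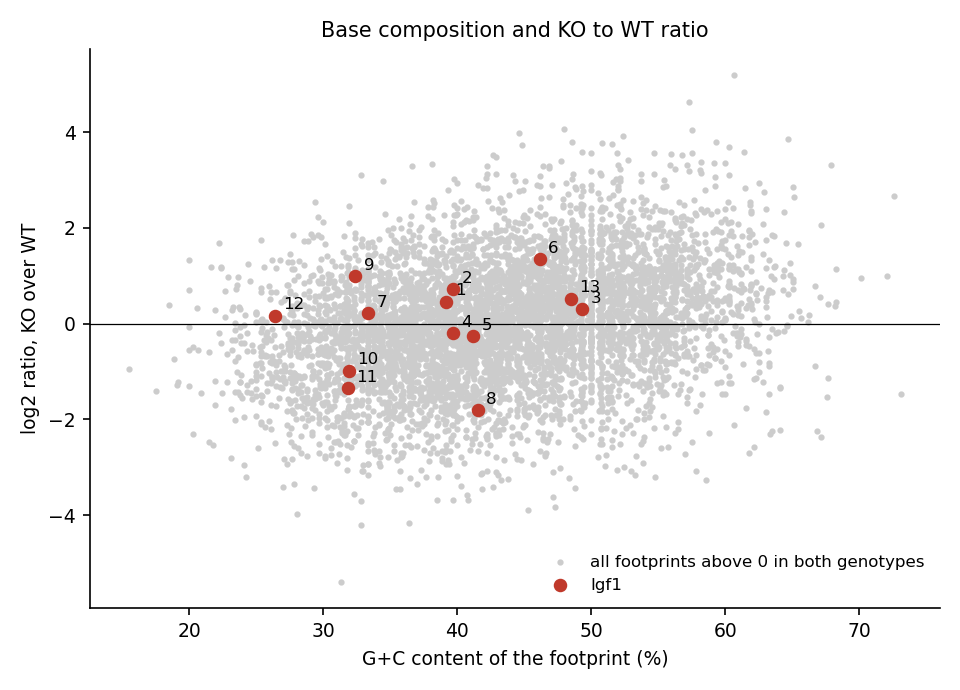
Log2 ratio of KO over WT occupancy (y axis) against G+C content of the footprint in percent (x axis), for all footprints above 0 in both genotypes in grey and the 13 Igf1 footprints in red with their numbers. Igf1 footprints lay within the spread of the others, with footprint 6 at 46.2% G+C and 1.36, and footprint 8 at 41.5% and -1.81.

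The long 3′ UTR held 21 sites of 16 families, and 4 of them (19.0%) lay within footprints, which cover 15.0% of its length. Footprints 1 and 6 held a site, which is 15.4% of the 13, while 24.3% of all footprints held a site of any searched family, and with 13 footprints nothing is read from the difference. Among 98 genes with at least 10 footprints this share ran from 0% to 54.5%, and 23 of them were below Igf1. No searched 7-nt site was found in footprints 2 to 5 or 7 to 13, which include footprints 5, 9 and 13. A shorter match of 6 nt gave 9 sites, in footprints 1, 2, 3, 6 and 13, and still none in footprints 5 and 9. No match says only that these letters are not in the window. The miRNAs that Ago carried in these cells were not analysed here.

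The match in footprint 6 was to miR-155, a miRNA known for its induction in activated macrophages. It spans 87397203 to 87397209, centred at -11 nt from the middle of the footprint. A second miR-155 site lay 170 nt before footprint 13 and in no footprint. Of all footprints, 41 (0.654%), on 39 genes, held a miR-155 site, and footprint 6 of Igf1 had the highest occupancy of them in KO as in WT. Igf1 was chosen by the occupancy of its footprints, so nothing is read from that rank. The median occupancy of the 41 was 0.438 in KO against 0.486 in WT.

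Footprints with a miR-155 site lay on both sides of equal occupancy, much as all footprints did. Of the 41, 20 were higher (48.7% of all footprints) and 21 lower in KO, with a median log2 ratio of -0.12, against -0.04 for all footprints. At least 2-fold higher in KO were 9 (18.9% of all footprints), and 11 were at least 2-fold lower (24.2%). Besides footprint 6, 1 of them was held by all 6 libraries, that of Tor1aip1, which encodes a protein of the inner nuclear membrane, with 1.35 in KO against 0.568 in WT. Tor1aip1 was named after its values were seen.

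Footprint 1 held sites of miR-15/16, miR-365 and miR-206, at nt 86, 161 and 192 of the 3′ UTR. Their positions relative to the middle of this long footprint were -46.5, 28.5 and 59.5 nt. miR-15 and miR-16 are abundant in blood cells, while miR-206 is known from skeletal muscle. The miR-206 site was the 1 8-nt match within a footprint of the 8 in the 3′ UTR. Both miR-29 sites, at nt 974 and 3608, were 8-nt matches and lay 297 nt and 128 nt from the nearest footprint. The let-7 site was 21 nt past footprint 3. The stretch of 1788 nt without a footprint held 7 sites of 6 families, those of miR-19, miR-23, miR-26, miR-29, miR-181 and miR-365.

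Motifs of other RNA-binding factors were searched on the transcript strand alone, and the matches may overlap. With 13 footprints, the counts lie near the shares of all footprints that hold each motif. ATTTA, the core of AU-rich elements that promote mRNA decay, occurred 18 times in the 3′ UTR and once in a footprint, at nt 3916 in footprint 7, while 11.9% of all footprints held it. The Pumilio motif TGTANATA occurred 2 times and in no footprint (3.81% of all footprints). The polyadenylation signal AATAAA occurred 3 times and in no footprint (7.00% of all footprints). Its variant ATTAAA occurred 5 times, with 1 in footprint 11 at nt 5136 (4.21% of all footprints). These counts describe letters only. G+C content was 38.6% in the bases under footprints and 36.5% in the rest of the 3′ UTR.

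Per length of 3′ UTR, the occupancy of Igf1 was above that of most genes. Its summed occupancy per kb of 3′ UTR was 4.23 in KO against 3.03 in WT. Of 2193 genes with a 3′ UTR footprint, 75 had a higher value per kb than Igf1 in KO, and 153 did in WT. The 375 genes with at least 5 such footprints had a median of 1.36 per kb in KO as in WT, and 32 of them were above Igf1 in KO and 59 in WT. Igf1 was chosen by the occupancy of its footprints, so these ranks are a description. Igf1 had 2.05 footprints per kb, below the median of 2.62 of the 375 genes, while over all 2193 genes 688 had more per kb.

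Among the 98 genes with at least 10 footprints, Igf1 included, 66 had a higher sum in KO. Their median log2 ratio of sums was 0.15, where Igf1 had 0.48 and 11 genes had more. The SD of the log2 ratio over footprints was 0.92 for Igf1, with a range of 0.54 to 4.42 and a median of 1.22 over the 98 genes. The share of the strongest footprint in the sum was 36.2% in KO (footprint 6) against 19.9% in WT (footprint 5) for Igf1, against medians of 22.6% and 23.9%. In KO 15 of these genes had a larger share than Igf1, and in WT 72 did.

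**Figure D4:**
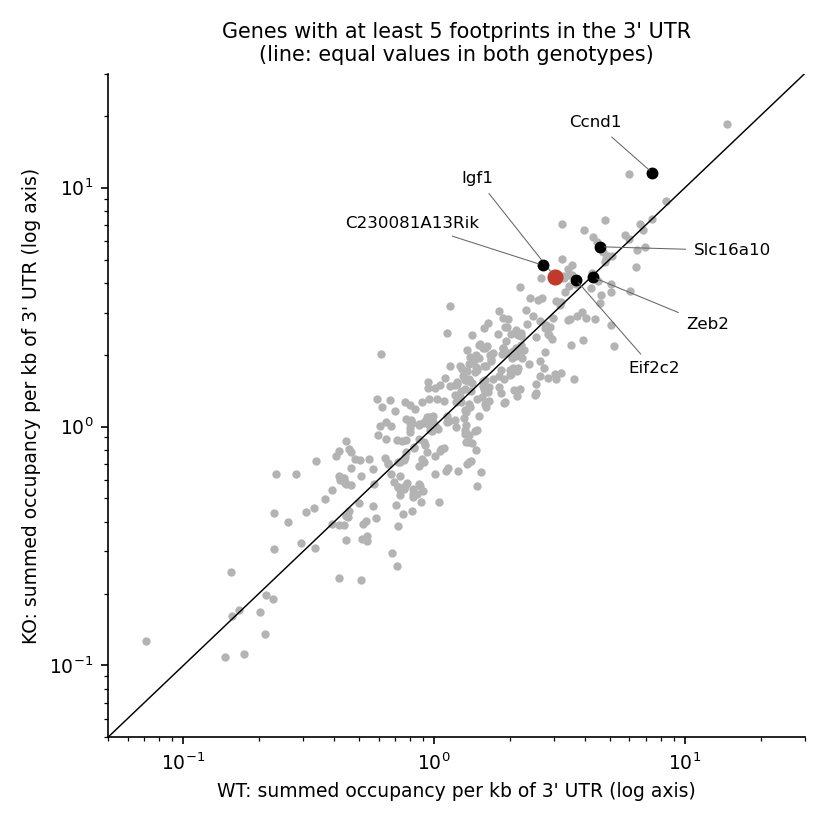
Summed occupancy per kb of 3′ UTR in KO (y axis, log scale) and WT (x axis, log scale) for the 375 genes with at least 5 footprints in the 3′ UTR, with Igf1 in red and the 5 genes most like it in black. Igf1 stood at 4.23 in KO against 3.03 in WT, above the line of equal values.

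The genes most like Igf1 were taken by the distance over 3 values, the log2 sums in KO and in WT and the log2 number of footprints, among 383 genes with at least 5 footprints. Nearest was Eif2c2, which encodes Argonaute 2, at a distance of 0.33, with 12 footprints and 4.12 per kb in KO against 3.67 in WT. The transcription factor gene Zeb2 (0.37), the cyclin gene Ccnd1 (0.43), Slc16a10, a transporter of aromatic amino acids (0.44), and C230081A13Rik (0.44) followed. None of the 5 was at least 2-fold different in its sum, and their log2 ratios ran from 0.01 for Zeb2 to 0.80 for C230081A13Rik. Of their footprints, all 6 libraries held 0 in Eif2c2 and 4 in Ccnd1, against 3 in Igf1.

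Of 64 genes of the IGF and insulin pathway, 19 were measured. By their sums 8 of them were higher and 11 lower in KO, where 47.8% of all genes were higher. None was at least 2-fold higher (11.7% of all genes) and 3 were at least 2-fold lower (17.9%). The median log2 ratio was -0.14, where that of all 2222 genes was -0.04. Without Igf1, which was chosen by its occupancy, 7 of 18 were higher, with a median of -0.26. Igf1 was the 1 ligand measured. Igf2r, the receptor that takes up IGF-2 for degradation, had 1.97 in KO against 3.23 in WT over 4 footprints, a log2 ratio of -0.71. The other receptors of the list were not measured here. Igfbp4, a binding protein that holds IGF away from its receptor, had 0.135 in KO against 0.236 in WT over 2 footprints, a log2 ratio of -0.80.

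Downstream of the receptor the highest ratios were modest. Among them were those of Pik3cb, a catalytic subunit of PI3K (log2 ratio 0.68), and the adaptors Grb2 (0.62) and Gab2 (0.61). Among the lowest was Inpp5d, the SHIP1 phosphatase that opposes PI3K, with 0.297 in KO against 1.17 in WT (-1.97). Rheb, the GTPase that activates mTORC1, had 0.290 in KO against 0.686 in WT (-1.24), and no KO library held its footprint. The kinase Akt1 had 0.183 in KO against 0.329 in WT (-0.84). None of the footprints of Inpp5d, Rheb and Akt1 was held by more than 1 KO library.

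**Figure D5:**
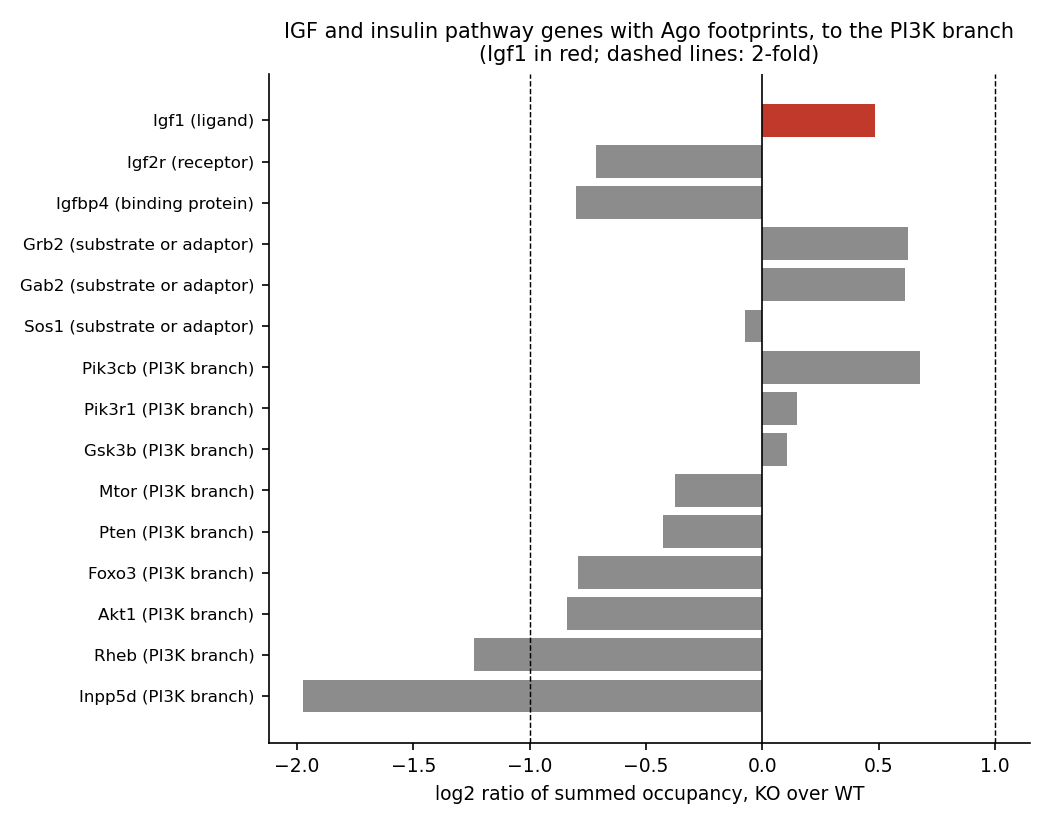
Log2 ratio of summed occupancy, KO over WT (x axis), for 15 measured genes of the IGF and insulin pathway from the ligand to the PI3K branch (y axis), ordered by role, with Igf1 in red and dashed lines at a 2-fold difference. Igf1 stood at 0.48, and Inpp5d and Rheb lay beyond 2-fold on the lower side.

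Of 51 genes for secreted growth factors, cytokines and other ligands or matrix proteins, 14 were measured, 9 higher and 5 lower in KO, with a median log2 ratio of 0.35, where 47.8% of all genes were higher. Without Igf1, 8 of 13 were higher, with a median of 0.25. At least 2-fold higher were 3 (11.7% of all genes) and lower 2 (17.9% of all genes). Highest were Apoe, an apolipoprotein (log2 ratio 1.88), Pdgfb, a growth factor for mesenchymal cells (1.30), and Plau, the urokinase plasminogen activator (1.06). Apoe had low values, 0.135 in KO against 0.0355 in WT. No Pdgfb footprint was held by more than 1 KO library, and the strongest footprint of Plau stood at 0.995. Lowest were Spp1, which encodes osteopontin (-1.21), the angiogenic factor Vegfa (-1.04; 2.63 in KO against 5.40 in WT, held by all 6 libraries) and the chemokine Ccl9 (-0.58). Spp1 was low as well, with 0.0675 in KO against 0.158 in WT. The median over all footprints of the mean of both genotypes was 0.425. Igf1 had the most footprints of the 14, 13 of 38.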

How the data were processed

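Each occupancy is a ratio that the authors computed, footprint signal over RNA-Seq expression of the transcript per the series design text, deposited as 1 value per genotype beside the number of libraries that held the footprint. Reads were aligned to mm9. Per the submitters' processing notes, tools included Bowtie 0.12.8 and bedtools. The sources used here do not say how libraries were combined or depth was handled.

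Footprints were assigned to genes of GENCODE vM1 on NCBIM37 (the assembly of mm9) by strand, with 3′ UTR taken first. The starts in the file count from 0 and are given from 1. Sequences were read with pysam 0.24.0 and samtools 1.23.1. Log2 ratios of KO over WT used a pseudocount of 0.00161, 50% of the smallest value above 0, which understates ratios of low values. There was no test. Seed sites matched bases 2 to 8 of 39 of 43 named miRNAs (35 of 38 families) in the RefSeq table. Ratios less base composition subtract the median log2 ratio of all footprints in 1 of 10 bins of G+C content. The ratio and site search were tested on simulated data.

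Named genes were every measured ligand, receptor and binding protein of the pathway, its 4 highest and 4 lowest genes, the 3 highest and 3 lowest secreted ligands and the 5 genes nearest Igf1. Some genes that this rule names are not reported here. The members and lists were chosen with earlier results of these data known.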

Additional observations from a re-analysis of the deposited data

How the results depend on the processing

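Results were recomputed with another pseudocount, scaling, filter, summary per gene or seed match, and less G+C content. Among the 119 values so obtained no ratio past 2-fold changed sign, and 102 stayed within 1.5 times, ratios also on the same side of 2-fold. With a pseudocount of 1, 0 Igf1 footprints and 0 pathway genes were at least 2-fold lower in KO. Less the median of their G+C bin, 2 footprints were at least 2-fold higher and 1 lower. Among Igf1 footprints held by at least 2 libraries of both genotypes 0 were at least 2-fold lower. By its strongest footprint Igf1 had a log2 ratio of 1.36. Leaving out each footprint in turn, chosen after the data were seen, gave sums between 0.15 and 0.62. By strongest footprint 4 pathway genes, Igf1 among them, were at least 2-fold higher. By sums, 1 was so when footprints under the median occupancy of the table were left out. An 8-nt match left 1 site in Igf1 footprints and a 6-nt match gave 9. Scaling moved log2 ratios by 0.13 at most, which took footprint 10 to -1.11 and the count of footprints at least 2-fold lower to 3 when KO was scaled on footprints held by all 6 libraries. The cause of these changes was not tested. Leaving out a library was not possible, as the values are combined. No paired analysis was possible because the columns carry no replicate. Depth limits could not be set, since the table gives no counts.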
